A study of Mus musculus with 6 samples.

Results

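Nuclear receptors that set metabolic gene programmes were followed in mouse kidney after lipopolysaccharide (LPS), a bacterial outer membrane component injected to model sepsis. The 9 receptors were taken by their listed symbols from the 17680 gene symbols of the 6 count tables: the estrogen-related receptors (ERRs) Esrra, Esrrb and Esrrg, the liver X receptor (LXR) alpha gene Nr1h3, the farnesoid X receptor (FXR) gene Nr1h4, the retinoid X receptors (RXRs) Rxra and Rxrb, and the peroxisome proliferator-activated receptors (PPARs) Pparg and Ppard. All 9 were in the tables, and all 9 passed the filter on low counts that kept 14219 genes.

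The study asked how kidney transcripts differ once LPS has injured the organ. Kidneys came from wild-type (WT) C57BL/6 mice aged 6 to 8 weeks, 24 h (day 1) after an intraperitoneal injection of LPS (3 mice) or of phosphate-buffered saline, PBS (Control, 3 mice). The sources used here give neither the dose of LPS nor the sex of the mice, and they name no other agent or allele. Each library was bulk RNA sequencing of kidney tissue, in which fewer cells of a type and less RNA per cell cannot be told apart.

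Nuclear receptors are transcription factors that bind DNA and change activity with a ligand or, for the ERRs, mainly with coactivators of the PGC-1 family. ERRs drive mitochondrial and fatty acid oxidation genes, PPARs respond to fatty acids, LXRs to oxysterols and FXR to bile acids, and RXRs are the shared partner with which PPARs, LXRs and FXR bind DNA. The kidney tubule, which runs on fatty acid oxidation, is a known site of ERR, PPAR alpha and FXR expression.

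The libraries held 29097558 to 33454344 counts. Kidney markers were present in all of them, with the 12 proximal tubule markers summing to 50117 to 60812 FPKM (counts scaled to gene length and to the library's total) in Control and 17638 to 20056 FPKM in LPS. Most of that sum was Kap (43934 to 54982 FPKM in Control, 16916 to 19365 FPKM in LPS). All 12 markers were lower in LPS, with a median log2 fold change of -2.01. For this and the other marker lists, 24.8% of all tested genes were lower and 25.7% higher. The medians were -1.19 for the thick ascending limb list (7 of 8 lower), -1.08 for distal convoluted tubule (6 of 6), -0.76 for intercalated cells (8 of 8) and -0.76 for principal cells (5 of 8). All 8 neutrophil markers were higher, their sum going from 4.65 to 5.60 FPKM in Control to 132 to 186 FPKM in LPS. Of 9 macrophage markers 4 were higher and 2 lower, with sums of 59.1 to 91.6 and 102 to 123 FPKM. LPS replicate 2 stood apart, since genes of a seminal vesicle list took 3.65% of its counts against 0.00328% to 0.00456% in the other libraries. Without that library Esrra and Esrrg remained lower and Esrrb lost its call, as given below.

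Among the 9 receptors, the 3 ERR genes were lower in LPS kidneys and none of the 9 was higher. That is 3 of 9 lower, 33.3%, where 24.8% of all tested genes were lower, and 0 of 9 higher, where 25.7% of all tested genes were higher (edgeR's quasi-likelihood test, Benjamini-Hochberg adjusted p under 0.05). Calls in either direction made up 50.5% of the 14219 genes, so a call by itself was common in this comparison. FPKM values of the 2 groups did not overlap for 4 receptors, the ERRs and Nr1h4, all lower in LPS, beside 30.3% of all tested genes separated in that direction, 29.8% in the other and 60.1% in either.

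**Figure D1:**
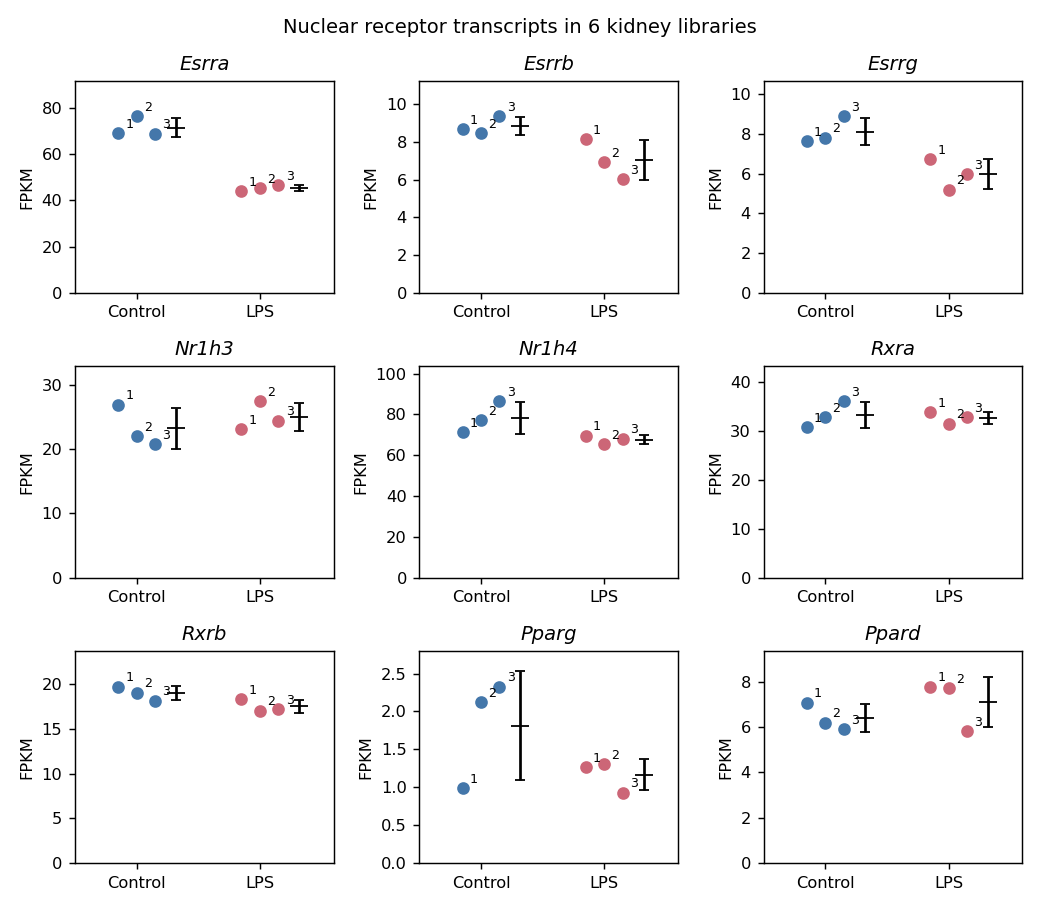
FPKM of each of the 9 receptors (vertical axes, from 0) in the Control and LPS libraries, numbered by replicate, with the mean and SD of 3 libraries as black bars. The 3 ERR panels and Nr1h4 show LPS points below all Control points, and the other 5 panels overlap.

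Esrra, which encodes ERR alpha, was the ERR with the highest level and the largest change. Its FPKM values were 69.3, 76.5 and 69.0 in Control replicates 1 to 3 and 44.0, 45.2 and 46.6 in LPS replicates 1 to 3. The LPS libraries lay close together and every one was far below the lowest Control library. The mean went from 71.6 ± 4.26 to 45.3 ± 1.31 FPKM (SD, n = 3 each), a log2 fold change of -0.65 ± 0.08 (SE, 95% interval -0.84 to -0.46, edgeR adjusted p = 0.000238). Among all tested genes 31.0% had a larger change in size than Esrra, and the median size among called genes was 0.71 on the log2 scale, so changes larger than that of Esrra were common in these kidneys.

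Esrra shares 73 of its 4387 exon bases with Trmt112 on the opposite strand in the GENCODE M21 annotation. Without a stated strand setting, reads in that stretch cannot be assigned. Trmt112 itself had a log2 fold change of 0.18 ± 0.09 (SE, edgeR adjusted p = 0.128). The promoter of Esrra is shown because it is the receptor with the firmest change. It is the RefSeq window from 250 bases before to 50 bases after the start site at chr19:6921759-6922058, minus strand, GRCm38.p6, with a GC content of 66%. It holds no exact copy of the hexamer AGGTCA, the core that most of these receptors bind, on either strand, and therefore has no capitals.
Esrra promoter: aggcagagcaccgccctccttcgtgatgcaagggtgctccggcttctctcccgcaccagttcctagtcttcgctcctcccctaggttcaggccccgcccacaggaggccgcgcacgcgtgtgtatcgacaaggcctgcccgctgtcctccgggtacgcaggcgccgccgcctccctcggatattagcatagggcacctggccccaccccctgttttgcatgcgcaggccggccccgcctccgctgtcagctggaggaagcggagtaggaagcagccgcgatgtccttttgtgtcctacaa

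Esrrg encodes ERR gamma, an ERR of oxidative tissues. Its FPKM values were 7.63, 7.82 and 8.90 in Control and 6.72, 5.20 and 5.98 in LPS. All LPS libraries were below all Control libraries, LPS replicate 1 coming nearest. The log2 fold change was -0.44 ± 0.11 (SE, 95% interval -0.68 to -0.19, edgeR adjusted p = 0.00836), and without LPS replicate 2 it was -0.34 with an adjusted p of 0.0311.

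Esrrb encodes ERR beta, known from pluripotent cells and the inner ear as well as kidney. Control libraries had 8.70, 8.47 and 9.37 FPKM and LPS libraries 8.15, 6.92 and 6.03 FPKM. The groups did not overlap, but LPS replicate 1 was just under the lowest Control library. The log2 fold change was -0.32 ± 0.11 (SE, 95% interval -0.56 to -0.08, edgeR adjusted p = 0.0301). This call was the weakest of the 3 ERR calls: the adjusted p rose to 0.0834 without LPS replicate 2, to 0.0941 without LPS replicate 3, to 0.0613 without Control replicate 2 and to 0.103 without Control replicate 3.

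The summed ERR level went from 88.6 ± 3.77 FPKM in Control to 58.3 ± 0.815 FPKM in LPS (SD, n = 3 each), a change of -34.2%. Esrra made up most of it, 80.8% ± 1.69 of the ERR sum in Control and 77.7% ± 2.59 in LPS. The sizes of these shares and of the ratio that follows depend on the gene lengths behind the deposited FPKM, given below. The ratio of Esrra to Esrrg was 8.87 ± 1.03 in Control and 7.68 ± 1.08 in LPS, with overlapping groups (exact permutation test, two-sided, p = 0.3; adjusted over 6 ratios, 0.36). No difference in this ratio was detectable at n = 3. Tubular markers fell beside the ERRs, by the medians given above, and their part in the ERR result was not tested.

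FXR, encoded by Nr1h4, is the bile acid receptor and had the highest level of the 9 receptors. Its FPKM values were 71.2, 77.1 and 86.3 in Control and 69.5, 65.5 and 68.1 in LPS. No LPS library reached the lowest Control library, yet Control replicate 1 and LPS replicate 1 were close. The mean went from 78.2 ± 7.65 to 67.7 ± 2.04 FPKM, and the log2 fold change of -0.20 ± 0.10 (SE, 95% interval -0.42 to 0.02) did not pass the test (edgeR adjusted p = 0.110). Without Control replicate 1 it passed, at -0.28 with an adjusted p of 0.0356.

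Nr1h3, the LXR alpha gene, which is expressed in macrophages and in lipid-handling epithelia, had 26.8, 22.0 and 20.8 FPKM in Control. The LPS libraries had 23.1, 27.4 and 24.4 FPKM. The groups overlapped across most of their range. Its log2 fold change was 0.12 ± 0.10 (SE, 95% interval -0.11 to 0.35, edgeR adjusted p = 0.367). The macrophage marker sums given above were higher in LPS, though the list was mixed, with 4 of 9 markers higher and 2 lower. The part of macrophages in the level of Nr1h3 was not tested. The ratio of Nr1h3 to Nr1h4 was 0.301 ± 0.0697 in Control and 0.370 ± 0.0441 in LPS, again with overlap (exact permutation test, two-sided, p = 0.3; adjusted over 6 ratios, 0.36).

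Rxra, the main RXR of epithelia, had 30.7, 32.7 and 36.0 FPKM in Control and 33.7, 31.4 and 32.7 FPKM in LPS. The LPS values lay inside the Control range. Its log2 fold change was -0.01 ± 0.09 (SE, edgeR adjusted p = 0.906), and the 95% interval of -0.22 to 0.19 leaves room for a change of that size either way. Rxrb, a broadly expressed RXR, had 19.7, 19.1 and 18.1 FPKM in Control and 18.3, 17.0 and 17.2 FPKM in LPS. LPS replicate 1 was just above Control replicate 3 and the other LPS libraries were below all Controls. The log2 fold change of Rxrb was -0.10 ± 0.07 (SE, 95% interval -0.25 to 0.05, edgeR adjusted p = 0.219).

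The summed RXR level was 52.1 ± 1.84 FPKM in Control and 50.1 ± 1.84 FPKM in LPS, of which Rxra made up 63.5% ± 2.79 and 65.0% ± 0.414. Rxra, which overlapped between the groups, also served as a reference level for the ERRs within each library. Since Rxra hardly changed, such ratios restate the ERR changes given above and are no separate support for them. The ratio of Esrra to Rxra was 2.17 ± 0.222 in Control and 1.39 ± 0.0747 in LPS. The ratio of Esrrb to Rxra went from 0.268 ± 0.0134 to 0.215 ± 0.0289 and that of Esrrg to Rxra from 0.245 ± 0.005 to 0.183 ± 0.0169. None of these 3 ratios overlapped between the groups. Each gave p = 0.1 (exact permutation test, two-sided; adjusted over 6 ratios, 0.2), and 0.1 is the smallest p that 3 against 3 libraries can give.

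Pparg encodes PPAR gamma, the adipocyte regulator, and was the lowest of the 9 receptors. It had 0.986, 2.12 and 2.33 FPKM in Control and 1.27, 1.30 and 0.926 FPKM in LPS. Control replicate 1 lay among the LPS libraries, below LPS replicates 1 and 2, while the other Controls were above every LPS library. The log2 fold change of -0.64 ± 0.32 (SE) was nearly as large as that of Esrra, but its 95% interval ran from -1.37 to 0.09 and it did not pass the test (edgeR adjusted p = 0.129). Without Control replicate 1 it was -0.95 with an adjusted p of 0.00701.

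Adipocyte markers were set beside Pparg by the order of libraries within each group and, separately, by the sign of their change. Adipoq, the adipocyte hormone adiponectin, had 6.42, 19.8 and 30.1 FPKM in Control and 3.45, 4.61 and 1.79 FPKM in LPS. Plin1, which coats adipocyte lipid droplets, had 1.29, 7.34 and 10.5 FPKM in Control and 3.41, 4.20 and 1.67 FPKM in LPS. Control replicate 1 was the lowest Control for both, as for Pparg, and LPS replicate 3 was the lowest LPS library for both, as for Pparg. Ppard, too, was lowest among LPS libraries in replicate 3. Of the 9 adipocyte markers 1 was lower (Adipoq, log2 fold change -2.51 ± 0.53 (SE), edgeR adjusted p = 0.00374) and 1 higher (Pck1, which the proximal tubule also expresses). Fabp4, Lipe and Cidec had log2 fold changes of 0.54, 0.50 and 0.11, opposite in sign to Pparg, and were not called. Fabp4 and Cidec were nevertheless also lowest in Control replicate 1 and LPS replicate 3 within their groups. The 9 summed to 701 to 1282 FPKM in Control and 1157 to 1221 FPKM in LPS, and none was at 0 in any library. Most of that sum was Pck1 (550 to 809 FPKM in Control, 862 to 984 FPKM in LPS), so it does not measure adipocyte RNA. Their part in the level of Pparg was not tested.

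**Figure D2:**
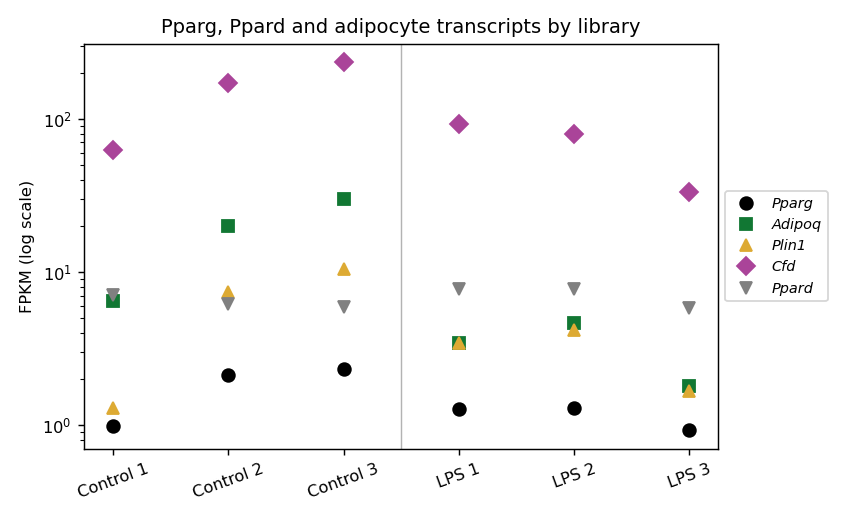
FPKM on a log scale of Pparg, Ppard and the adipocyte transcripts Adipoq, Plin1 and Cfd (adipsin) in each of the 6 libraries, with 1 point per library. Adipoq, Plin1 and Cfd are examples with negative log2 fold changes, as for Pparg. Other listed adipocyte markers are not plotted, among them Fabp4, Lipe, Cidec and Pck1, which had positive ones. Pparg, Adipoq, Plin1 and Cfd are all lowest among Controls in replicate 1 and lowest among LPS libraries in replicate 3. Ppard is highest among Controls in replicate 1 but is also lowest among LPS libraries in replicate 3.

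Ppard, which encodes the widely expressed PPAR delta, had 7.08, 6.19 and 5.90 FPKM in Control and 7.78, 7.72 and 5.83 FPKM in LPS. LPS replicates 1 and 2 were above all Controls and LPS replicate 3 was below them all. The log2 fold change was 0.16 ± 0.12 (SE, 95% interval -0.12 to 0.45, edgeR adjusted p = 0.300), and without LPS replicate 3 it was 0.29 with an adjusted p of 0.0495. Pparg made up 22.0% ± 8.59 of the summed level of Pparg and Ppard in Control and 14.0% ± 0.352 in LPS. The ratio of Ppard to Pparg, 4.21 ± 2.58 in Control and 6.13 ± 0.178 in LPS, did not separate the groups (exact permutation test, two-sided, p = 0.4; adjusted over 6 ratios, 0.4).

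Ordered by deposited Control FPKM, the receptors ran Nr1h4, Esrra, Rxra, Nr1h3, Rxrb, Esrrb, Esrrg, Ppard and Pparg. The gene lengths implied by the FPKM were 2242 bases for Esrra, 11060 for Esrrg and 3349 for Ppard. GENCODE M21 gives them 4387, 6208 and 7514 exon bases. Levels, shares and ratios between genes depend on these lengths and could differ under another annotation. The change of a single gene does not depend on its length, though another annotation could alter which reads are counted for it. In Control, the neighbours Nr1h4 and Esrra overlapped, as did Esrrb and Esrrg, and every other neighbouring pair was separated. In LPS, Nr1h4 and Esrra no longer overlapped, with the lowest Nr1h4 library at 65.5 FPKM and the highest Esrra library at 46.6 FPKM. Esrrb and Esrrg overlapped in LPS too, and Esrrg then also overlapped Ppard.

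**Figure D3:**
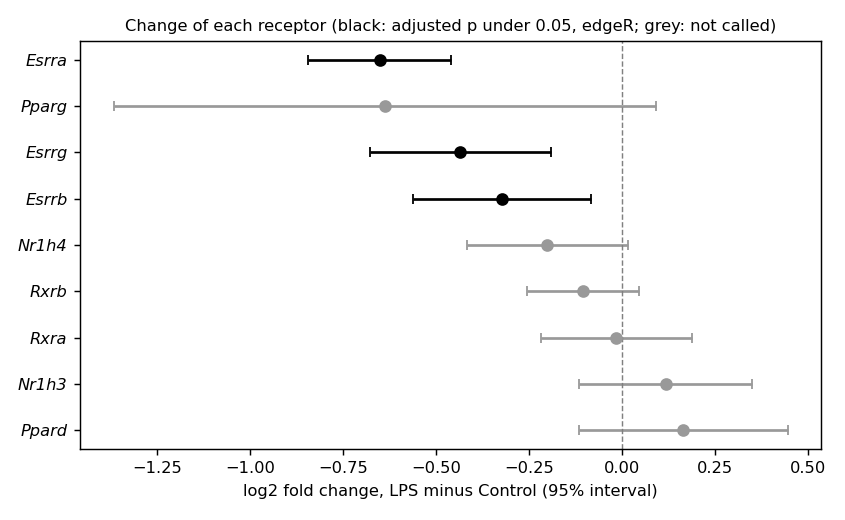
Log2 fold change of each receptor, LPS minus Control (horizontal axis), with its 95% interval, ordered from the most negative at the top. Black points passed the test (Esrra, Esrrg and Esrrb), grey points did not; the interval of Pparg is the widest, from -1.37 to 0.09.

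The hexamer AGGTCA was searched on both strands in the 18 RefSeq promoter windows of the 9 receptors (GRCm38.p6). It was present in 4 of the 18 windows (22.2%), and in 5340 of all 32851 windows of the same length (16.3%; 13.2% for the tested genes). The 4 windows belong to Nr1h4, Pparg (2 windows) and Rxra, none of which passed the test, and are shown because they are the only exact matches among the receptors. A match is a description of letters and not a binding site. Capitals mark the hexamer, written TGACCT where it lies on the other strand. The stretches are chr10:89506847-89506892 (minus strand) for Nr1h4, chr6:115361096-115361141 and chr6:115362320-115362365 (both plus) for Pparg, and chr2:27709185-27709230 and chr2:27709224-27709269 (both plus), which overlap, for Rxra.
Nr1h4: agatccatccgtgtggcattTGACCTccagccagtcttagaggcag
Pparg, first window: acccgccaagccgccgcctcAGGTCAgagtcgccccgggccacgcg
Pparg, second window: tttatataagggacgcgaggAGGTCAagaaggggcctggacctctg
Rxra, upstream match: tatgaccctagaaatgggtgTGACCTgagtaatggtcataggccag
Rxra, downstream match: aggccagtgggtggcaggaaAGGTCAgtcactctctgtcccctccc
The longer ERR core TCAAGGTCA was in 139 of all windows (0.423%) and in none of the receptors' own. The paired arrangements used by RXR partners were rarer still: AGGTCANAGGTCA (a direct repeat spaced by a single base, which contains the hexamer) was in 13 windows (0.0396%), and neither it, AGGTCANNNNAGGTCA (5 windows) nor AGGTCANTGACCT (3 windows) was in a receptor window.

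Genes whose 6-library profile was most like that of a receptor were named by the smallest root mean square distance of centred log2 CPM (counts scaled to library size) among 12780 genes. For Esrra these were Camk2n1 (distance 0.0267), Sdhc (0.0278), a subunit of the same mitochondrial complex as Sdhb, and Ebp (0.0313), a cholesterol synthesis enzyme. For Esrrb they were Sh2b3, Fgfr2 and Smg6, and for Esrrg Agbl5, Depdc7 and Gsta4. Nr1h4 was nearest to Rnf6, Kansl3 and Ankrd12, Nr1h3 to B3gnt7, Bnip2 and Med6, Rxra to Pnpla8, Larp4 and Tesk2, Rxrb to Mllt1, Zfp362 and Traf4, and Ppard to Dop1b, Tmem39a and Notch2. Pparg had no close neighbour: its nearest genes, Amy1 (0.195), Pkhd1 (0.199) and Cib2 (0.230), were farther away than the nearest genes of any other receptor. The 6 libraries fall in 2 groups, so a like group difference by itself makes profiles alike.

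Of 19 tested receptors that pair with the 9 or belong to the same superfamily, 9 were lower and 2 higher (47.4% and 10.5%, beside 24.8% and 25.7% of all tested genes), with a median log2 fold change of -0.25 beside 0.01 over all genes. Ppara, the PPAR of fatty acid oxidation, had 11.4, 14.6 and 15.5 FPKM in Control and 13.8, 13.6 and 14.7 FPKM in LPS, so its LPS values lay inside the Control range (log2 fold change 0.03 ± 0.12 (SE), edgeR adjusted p = 0.881). By the deposited FPKM its transcript was above those of Ppard and Pparg in every library. Nr1h2, the LXR beta gene, had 42.3, 44.6 and 43.7 FPKM in Control and 50.5, 43.3 and 44.5 FPKM in LPS (log2 fold change 0.09 ± 0.08 (SE), edgeR adjusted p = 0.382). Its groups overlapped, as did those of Nr1h3, and by the deposited FPKM it was above Nr1h3 in every library.

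The lowest log2 fold changes among these related receptors were those of Esr1, the estrogen receptor alpha (-2.26 ± 0.19), Thra, a thyroid hormone receptor (-0.87 ± 0.07), and Rarb, a retinoic acid receptor (-0.78 ± 0.21; SE, edgeR adjusted p of 1.47e-05, 1.64e-05 and 0.0129). Hnf4a, a master regulator of proximal tubule genes, fell from 196 ± 15.7 to 135 ± 7.98 FPKM (SD, n = 3; log2 fold change -0.52), and Nr2f2, which encodes COUP-TFII, had a log2 fold change of -0.25 that lost its call under 6 of 17 alternatives (edgeR adjusted p = 0.0435, up to 0.122). Rarb lost its call without Control replicate 2 (adjusted p = 0.0542). Higher were Nr1i2, the pregnane X receptor (log2 fold change 0.99 ± 0.22), and Rara, the retinoic acid receptor alpha (0.52 ± 0.09; SE). Rxrg and Nr1i3 did not pass the filter on low counts.

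Of 13 tested coactivators 4 were higher and 2 lower (30.8% and 15.4%, beside 25.7% and 24.8% of all tested genes), with a median log2 fold change of -0.08. Ppargc1a, which encodes the ERR coactivator PGC-1 alpha, had 4.88, 4.76 and 5.57 FPKM in Control and 5.52, 4.18 and 3.96 FPKM in LPS. LPS replicate 1 was just under the highest Control and the other LPS libraries were below all Controls (log2 fold change -0.15 ± 0.12 (SE), edgeR adjusted p = 0.353; without LPS replicate 1, -0.30 and 0.0290). Ppargc1b, for PGC-1 beta, had a log2 fold change of -0.16 ± 0.16 (SE, edgeR adjusted p = 0.436). Perm1, a muscle-type regulator acting with PGC-1 and ERRs, fell from 1.67 ± 0.126 to 0.249 ± 0.039 FPKM (SD, n = 3; log2 fold change -2.73). Ncoa3 was lower by a log2 fold change of -0.39, and Pprc1, a PGC-1 related coactivator, Prmt1 and Carm1, arginine methyltransferases, and Ncoa6 were higher, with log2 fold changes of 0.99, 0.67, 0.43 and 0.47. Of 8 tested corepressors 1 was higher and 0 lower (12.5% and 0%, beside 25.7% and 24.8% of all tested genes). The called one was Tbl1xr1, with a log2 fold change of 0.21, a call lost under 10 of 17 alternatives (edgeR adjusted p = 0.0231, up to 0.129 over the alternatives).

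Genes listed as ERR targets were mostly lower. Of 19 tested, 14 were lower and 1 higher (73.7% and 5.26%, beside 24.8% and 25.7% of all tested genes), with a median log2 fold change of -0.47. The gene lists were chosen with earlier results of these data known, so their shares, here and for the other lists, are descriptions and not tests. Acadm, the medium-chain acyl-CoA dehydrogenase of fatty acid oxidation, went from 474 ± 42.7 to 195 ± 5.10 FPKM (SD, n = 3; log2 fold change -1.27 ± 0.08 (SE), edgeR adjusted p = 4.27e-06). Sirt3, a mitochondrial deacetylase, Ndufs1, of respiratory complex I, and Sdhb, of complex II, had log2 fold changes of -1.05, -1.03 and -1.01. Vegfa, an angiogenic growth factor, and Atp5b of ATP synthase had -0.65 and -0.62. Idh3a, of the citric acid cycle, and Gabpa, a transcription factor of mitochondrial genes, were just past the threshold, at -0.20 and -0.29 (edgeR adjusted p = 0.0489 and 0.0205), and lost their calls without several single libraries.

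Pdk4, the kinase that closes pyruvate dehydrogenase, was the member of the ERR list that was higher, and it is listed as a PPAR target as well. It had 8.30, 8.99 and 17.4 FPKM in Control and 259, 100 and 88.2 FPKM in LPS, so the groups were far apart and LPS replicate 1 was the highest. Its log2 fold change was 3.69 ± 0.46 (SE, edgeR adjusted p = 0.000193). Promoter matches to the hexamer are shown for the ERR targets Acadm, the lowest of the list, and Sdhb, at chr3:153944867-153944893 (minus strand) and chr4:140961165-140961210 (plus strand). Matches lay in 3 of the list's 23 RefSeq windows (13.0%), beside 16.3% of all windows and 13.2% of the windows of tested genes.
Acadm: gTGACCTtcgggctccggtgacactgg
Sdhb: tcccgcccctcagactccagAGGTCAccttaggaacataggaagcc

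PPAR target genes were mostly higher, although none of Ppara, Ppard and Pparg was. Of 32 tested, 21 were higher and 3 lower (65.6% and 9.38%, beside 25.7% and 24.8% of all tested genes), with a median log2 fold change of 0.64. Plin2, a lipid droplet coat protein, had 40.2, 41.2 and 40.5 FPKM in Control and 511, 715 and 963 FPKM in LPS (log2 fold change 4.18 ± 0.22 (SE), edgeR adjusted p = 1.15e-06). Every LPS library was far above every Control library. Fgf21, a fasting hormone, had 0 counts in the Control libraries together and 185 in the LPS libraries, at least 58.1-fold higher when 3 counts are taken as the floor of the Control group. That floor covers counting error only.

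Other PPAR targets rose by less. Angptl4, an inhibitor of lipoprotein lipase, had a log2 fold change of 2.53, and Slc25a20, the mitochondrial carnitine carrier, 1.30. Hadha, Acadl and Acadvl, all enzymes of fatty acid oxidation, had 0.68, 0.60 and 0.56, and Cpt1a, the gate of mitochondrial import, had 0.25 and was not called (edgeR adjusted p = 0.139). Acot2 and Acot1 (2.04 and 1.62) and Cyp4a14 and Cyp4a10 (1.84 and 1.04) have near-identical copies, so their values are uncertain where reads could be split. The 3 lower members were Slc27a2, a fatty acid transporter of the proximal tubule (-1.40), Cyp4a12a (-0.48) and Acaa1a (-0.46), the last 2 again with close copies. Fatty acid oxidation genes thus fell and rose in the same kidneys, with Acadm at -1.27 and Acadl at 0.60. Acadm was listed only as an ERR target, and Hadha, Acadl and Acadvl only as PPAR targets. The contrast between the ERR and PPAR lists thus depends in part on how such genes were assigned.

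Plin2 is shown as the PPAR target with the largest rise among those with a match to the hexamer, at chr4:86670252-86670297 (minus strand). Every other PPAR target with a match had a smaller log2 fold change, among them Slc27a2, which was lower. Matches lay in 9 of the list's 27 windows (33.3%), beside 16.3% of all windows and 13.2% of the windows of tested genes.
Plin2: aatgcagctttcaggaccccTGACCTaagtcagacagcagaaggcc

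**Figure D4:**
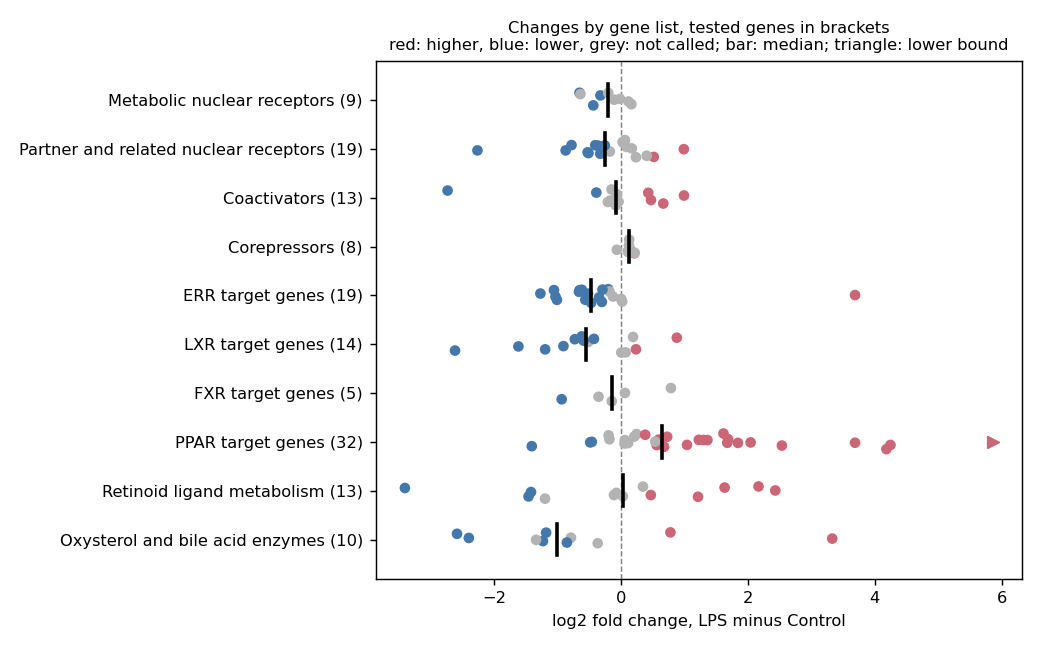
Log2 fold change, LPS minus Control (horizontal axis), of each tested gene by list, with the number of tested genes in brackets, the list's median as a black bar and called genes in colour. The ERR target list lies mostly left of 0 (14 of 19 lower) and the PPAR target list mostly right of it (21 of 32 higher). Pdk4 is the only gene in both of these lists. Their contrast depends in part on how genes such as Acadm and Acadl were assigned. The triangle is the lower bound for Fgf21.

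Of 14 tested LXR target genes 8 were lower and 2 higher (57.1% and 14.3%, beside 24.8% and 25.7% of all tested genes), while neither LXR gene was called. The list had a median log2 fold change of -0.55. Lpl, lipoprotein lipase, had 356, 272 and 281 FPKM in Control and 55.9, 42.1 and 49.4 FPKM in LPS (log2 fold change -2.61 ± 0.13 (SE), edgeR adjusted p = 8.83e-07). Abcg1, a cholesterol exporter, Scd1, a fatty acid desaturase with a close copy in Scd2, and Srebf1, the regulator of lipid synthesis, had -1.61, -1.19 and -0.91. Abca1, the other main cholesterol exporter and a classical LXR target, did not follow them, with 3.68, 3.70 and 3.94 FPKM in Control and 4.34, 3.80 and 3.71 FPKM in LPS (0.07 ± 0.08, adjusted p = 0.473). Apoe was lower at -0.43, and Arl4c and Lpcat3, a phospholipid remodelling enzyme, were higher at 0.88 and 0.24. Lpcat3 lost its call under 5 of 17 alternatives (edgeR adjusted p = 0.0301, up to 0.107).

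Several enzymes that make or clear LXR and FXR ligands had larger log2 fold changes, in either direction, than any of the 9 receptors. Of 10 tested oxysterol and bile acid enzymes 5 were lower and 2 higher (50% and 20%, beside 24.8% and 25.7% of all tested genes), with a median log2 fold change of -1.01. Ch25h, which makes the oxysterol 25-hydroxycholesterol, had 1.36, 0.919 and 1.32 FPKM in Control and 13.2, 13.7 and 8.93 FPKM in LPS (3.33 ± 0.22 (SE), edgeR adjusted p = 4.88e-06). Ch25h is also known as an interferon-induced gene of macrophages. Hsd3b7 was higher at 0.78. Lower were Amacr (-2.58), Akr1d1 (-2.39), Cyp27a1 (-1.23), which makes the oxysterol 27-hydroxycholesterol, Cyp7b1 (-1.18), which clears oxysterols, and Scp2 (-0.85). The lower 5 fell beside the proximal tubule markers, whose median was -2.01, and the part of those cells was not tested.

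FXR target genes could be read in part. Of the 11 that are in the count tables, 5 passed the filter, and Abcb11, Abcb4, Fgf15, Cyp7a1, Cyp8b1 and Ugt2b1, genes of liver or intestine, had at most 27 counts in a group. Of the 5 tested, 1 was lower and 0 higher (20% and 0%, beside 24.8% and 25.7% of all tested genes). Slc51a, a basolateral bile acid carrier subunit, was the called one, with 60.7, 52.0 and 52.7 FPKM in Control and 30.7, 21.2 and 34.1 FPKM in LPS (log2 fold change -0.93 ± 0.15 (SE), edgeR adjusted p = 0.000992). Slc51b, the partner subunit of the same carrier, had 44.2, 49.9 and 45.6 FPKM in Control and 28.0, 41.3 and 56.1 FPKM in LPS, a spread that spans the Control range (-0.14 ± 0.22, adjusted p = 0.612). Nr0b2, the classical FXR target SHP, had 1.37, 1.73 and 1.04 FPKM in Control and 1.52, 1.56 and 1.22 FPKM in LPS (0.06 ± 0.29, adjusted p = 0.871). The RefSeq window of Slc51a holds the hexamer at chr16:32487912-32487957 (minus strand).
Slc51a: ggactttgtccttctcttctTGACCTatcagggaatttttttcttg

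Retinoid metabolism supplies the ligands of RXRs and retinoic acid receptors. Of its 13 tested genes 5 were higher and 3 lower (38.5% and 23.1%, beside 25.7% and 24.8% of all tested genes), with a median log2 fold change of 0.03. Of the retinaldehyde dehydrogenases that make retinoic acid, Aldh1a1 and Aldh1a2 were higher and Aldh1a3 lower. Aldh1a1 had 4.29, 2.80 and 4.004 FPKM in Control and 12.9, 19.9 and 16.5 FPKM in LPS (2.17 ± 0.19 (SE), edgeR adjusted p = 2.32e-05), and Aldh1a2 had a log2 fold change of 2.43 ± 0.42. Aldh1a3 had 12.3, 10.04 and 9.96 FPKM in Control and 1.39, 1.02 and 0.610 FPKM in LPS (-3.40 ± 0.23, adjusted p = 5.56e-06). The groups were apart for each of the 3 enzymes. Lrat, which stores retinol as esters, and Dhrs3, which turns retinaldehyde back to retinol, were lower at -1.42 and -1.45, and Bco1, which cleaves beta-carotene to retinaldehyde, was higher at 1.63.

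Bco1 is shown because its promoter was the sole window of all the lists with the direct repeat AGGTCANAGGTCA, written in capitals as it reads from the other strand, at chr8:117095789-117095841 (plus strand). Its FPKM values were 0.769, 0.847 and 0.847 in Control and 3.29, 1.98 and 2.35 in LPS, all LPS libraries being above all Controls.
Bco1: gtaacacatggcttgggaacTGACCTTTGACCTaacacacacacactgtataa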

How the data were processed

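The authors deposited whole-number read counts and FPKM values per gene symbol for each of 6 kidney libraries. The submitters' processing notes name SAMtools, HISAT2, HTSeq, R 3.2.0 and DESeq2, with no role. The sources used here give no genome build, annotation or strand setting. The deposited FPKM equalled count over gene length and library total in 106077 of 106080 values (relative tolerance 1e-06).

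Groups came from the sample titles, and each library is taken as a mouse, per the series' design text. Counts were tested in R 4.3.3 with edgeR 4.0.16: filterByExpr defaults (minimum count 10, minimum total 15; 3461 genes removed), TMM factors and the two-sided quasi-likelihood test for LPS against Control, with Benjamini-Hochberg adjustment over 14219 genes and a threshold of 0.05. Of these, 3658 were higher and 3527 lower in LPS. SE is that of the log2 fold change. No 2 libraries agreed within sampling noise (chi-square per degree of freedom of at least 11.1). The script was tested on simulated data.

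Members and gene lists were chosen with earlier results of these data known. Named were the 9 receptors, the 3 genes with the nearest profile to each, the 3 largest and 3 smallest called changes of each list, and Ppargc1a, Ppargc1b, Ppara, Nr1h2 and Nr0b2; other genes are examples named after their values were seen. A few genes that the rule or the examples cover are not reported here. Alternatives were RLE or library-size scaling, other filters, DESeq2 1.42.0, limma 3.58.1 (voom, or on log2 of FPKM plus 1 or 0.1), a replicate block, leaving out genes of 1 library, and leaving out each library. Promoter windows are RefSeq's (GRCm38.p6). Sult2a1 and protein sequences were not analysed here.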

Additional observations from a re-analysis of the deposited data

How the results depend on the processing

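Across the 17 alternatives 3077 to 3724 genes were higher and 2942 to 3589 lower in LPS, and no scaling moved the median of all genes by more than 0.01 on the log2 scale. Esrra kept its direction and call throughout (log2 fold change -0.69 to -0.59, adjusted p at most 0.00171), as did Esrrg (-0.52 to -0.34, at most 0.0353). Esrrb was not called by limma on log2(FPKM + 1) (adjusted p = 0.0501) or without each of 4 libraries. When single libraries were left out, the number of receptors lower ranged from 2 to 5, with 5 without Control replicate 1, where Nr1h4 and Pparg were added, and the number higher from 0 to 1, with Ppard called without LPS replicate 3. With 1 library left out at a time, log2 fold changes ranged from -0.0842 to 0.0557 for Rxra (also 0.0137 without LPS replicate 2), from -0.112 to 0.123 for Ppara (also -0.0128 without LPS replicate 3), from -0.0973 to 0.274 for Nr0b2 (also -0.000521 without LPS replicate 2) and from -0.419 to 0.0866 for Slc51b, and the FXR target median from -0.393 to 0.0317. None of these passed the test, apart from the median, which has none. The cause was not tested. Of 1357 values of 80 other named genes, 1313 kept direction and call, 33 lost the call, 6 gained it and 5 changed sign.

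The replicate numbers were not taken to pair the mice. Same-numbered libraries had correlations of 0.0478, -0.0535 and -0.00201 in their deviations from the group means. Differently numbered libraries had -0.0865 to 0.111. Such values from 3 libraries a group cannot decide whether the numbers mark pairs. With the replicate number as a block 6745 genes were called (3414 higher, 3331 lower), 6609 of them among the 7185 called without it, and 3 receptors were lower: Esrra (-0.65, adjusted p = 0.0004), Esrrg (-0.44, 0.00902) and Esrrb (-0.33, 0.0450).

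Precision is set by 3 mice a group and, for Pparg, by the spread of the Control libraries, with a 95% interval from -1.37 to 0.09.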
